A study of Rattus norvegicus with 6 samples.

Results

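The citric acid cycle oxidises acetyl groups in the mitochondrion, passing electrons to the respiratory chain through NADH and succinate, and it supplies citrate, 2-oxoglutarate, succinate and malate to the rest of metabolism. In macrophages the cycle has a side branch, in which aconitate decarboxylase, the product of Acod1, turns cis-aconitate into itaconate, an inhibitor of succinate dehydrogenase. Activated macrophages are known for rerouting the cycle towards citrate export and towards the build-up of succinate and itaconate. RNA of the enzymes of this pathway was followed here in brain macrophages of the rat after a stroke.

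The 9 genes considered were Acod1, Cs, Aco1, Idh1, Idh3a, Ogdh, Sucla2, Fh and Mdh2. They were matched by symbol to the probe sets of the array that name exactly 1 gene, and 7 of the 9 were found, through 12 probe sets, among 14217 genes with such a probe set. In the array annotation used here no probe set named Acod1, the itaconate enzyme, or Fh, fumarate hydratase, so these were not analysed here. Of the 7 measured genes, Cs, Idh3a, Ogdh, Sucla2 and Mdh2 encode mitochondrial enzymes or subunits of the cycle, whereas Aco1 and Idh1 encode cytosolic enzymes that carry out the aconitase and the NADP-dependent isocitrate dehydrogenase reactions outside the mitochondrion. Each gene was read through its probe set of highest mean over the 6 arrays. All 7 passed the filter on low signal, as did 9928 genes in all.

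Cells positive for both CD11b and CD163 were purified by flow cytometry from the right brain hemisphere of adult male Sprague-Dawley rats. CD163 is a scavenger receptor of border-associated macrophages (BAMs), and the sort held perivascular macrophages together with meningeal macrophages that stayed on the brain surface. The control group was 3 rats (63, 68 and 69), and the ischemia group was 3 rats (64, 65 and 66) in which the right middle cerebral artery was occluded for 1 h and reperfused for 16 h. Every sample came from a different rat and was hybridised to 1 Affymetrix array, and values are log2 RMA values. In RNA from a sorted population, fewer cells of a type and less RNA per cell cannot be told apart.

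Some features of the arrays bear on all results. Although RMA makes the value distributions of arrays alike, those of the deposited values were not identical. Array medians lay between 7.82 and 7.90, but the highest value was 13.85 in control 63 against 14.88 to 14.96 in the other 5 arrays, and the mean of 43 ribosomal protein genes was 12.46 in control 63, 13.11 and 13.12 in the other controls and 13.29 to 13.37 after ischemia. The 3′ minus 5′ difference of the actin control probe sets lay between 0.058 and 0.073 in controls and between 0.17 and 0.24 after ischemia. Cd163 was between 12.63 and 14.11 in all 6 rats, and none of 8 BAM markers passed the test in limma (3 were lower at an unadjusted p under 0.05). Monocyte markers were higher after ischemia, 4 of 5 measured past the test, with a summed linear level of 5123 to 9900 in controls against 24261 to 51883. Of these, Vcan was tested only because of its ischemia values, with controls at 6.67 to 6.83. Ly6c (6.69) and Fn1 (6.39) lay under the filter level of 7.16 in control 69, so they also needed ischemia values to be tested. Granulocyte markers differed among themselves, with a summed level of 978 to 1262 over 8 genes against 1830 to 4092. Of 6 tested 3 rose, namely S100a8, Lcn2 and Mmp9. Their control values lay under the filter level of 7.16, so they were tested only because of their ischemia values. S100a9 and Csf3r were higher and did not pass, and Cxcr2 differed by -0.50. Mpo, Elane, Ltf and Ngp had no probe set. Endothelial markers (3 genes) summed to 2883 in control 63 and to 659 and 671 in the other controls. Of 4 oligodendrocyte markers 2 fell, with a summed level of 7379 to 14497 against 3041 to 4412. Summed neuron markers were also lower (1316 to 2702 in controls, 565 to 901 after ischemia), and summed lymphocyte markers higher (897 to 940 against 1297 to 2123). Of 5 microglia markers P2ry12 fell by 1.78 and 4 did not pass. Of 3 astrocyte markers tested Gfap rose by 2.07 and 2 did not pass, and the summed levels of both classes overlapped between groups. The part of all these shifts in the results for the enzymes was not tested.

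In these cells RNA for 4 of the 7 enzymes rose after ischemia and that of none fell, although Idh1 was lower at an unadjusted limma p under 0.05. Idh3a rose most, 2.87-fold, followed by Mdh2 (1.96-fold), Sucla2 (1.85-fold) and Cs (1.51-fold), so every gene that rose encodes a mitochondrial protein of the cycle. Ogdh, also mitochondrial, and the cytosolic Aco1 and Idh1 did not pass the test. A gene was called higher or lower at an adjusted p under 0.01 in limma, with adjustment over all 9928 genes. Over all of these 16.8% were called higher and 5.99% lower, and 4 of 7 stands above the share of all genes. The enzymes were chosen with earlier results of these data known, so this comparison is not a test. Without ischemia 65 or ischemia 66 the count was 2 of 7. The groups of 3 rats did not overlap for 5 of the 7 genes, beside 55.6% of all genes. The median log2 fold change was 0.60 over the 7 enzymes and 0.10 over all genes.

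**Figure D1:**
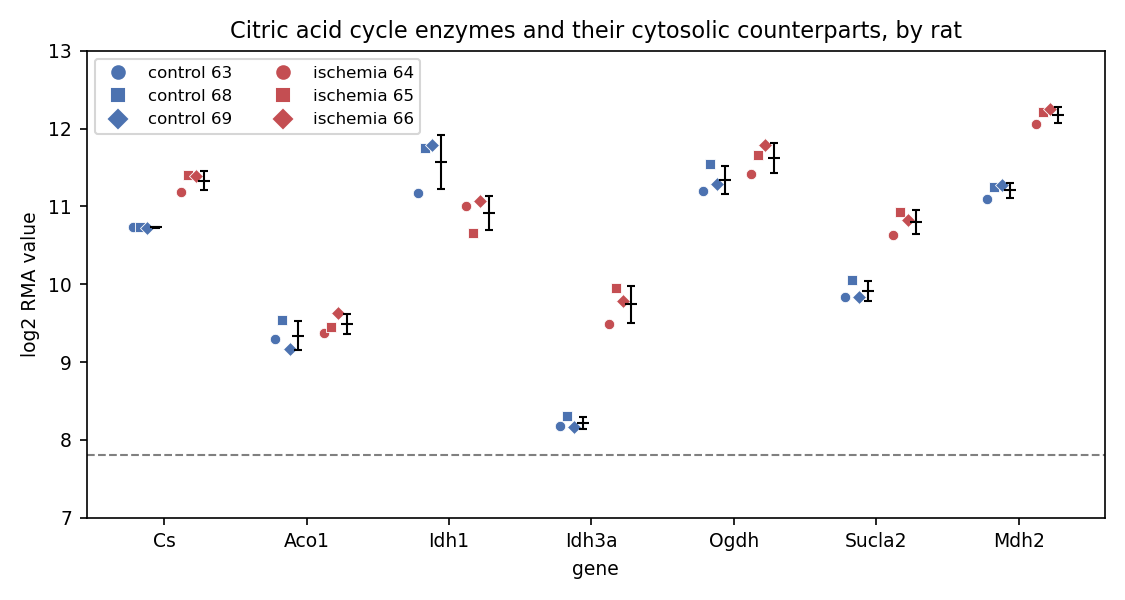
Log2 RMA values (vertical axis) of the 7 measured enzymes (horizontal axis) in 3 control rats (blue) and 3 rats after ischemia (red), a symbol per rat, with mean and SD in black and a dashed line at 7.80, the 90th percentile of genes of other tissues. The groups are apart for Cs, Idh3a, Sucla2, Mdh2 and, in the other direction, Idh1, and overlap for Aco1 and Ogdh.

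The call of genes as higher or lower changed with some of the ways in which arrays were scaled. As deposited, 73.7% of the genes called were higher in ischemia, with an all-gene median of 0.10. Centring each array on its median left the share at 74.6%, and 4 of the 7 enzymes were called higher. Centring on ribosomal protein genes takes their RNA as equal between arrays, which was not tested. After centring each array on the ribosomal protein genes the share was 21.7% and the all-gene median -0.33, and after repeating the quantile normalization the share was 59.96%. With ribosomal centring and control 63 left out, chosen after the data were seen, they were 49.0% and -0.16. The median of the 7 enzymes lay 0.49 above that of all genes as deposited. Ribosomal centring shifts every gene of an array alike, so it cannot test this difference. It was 0.42 after repeated quantile normalization and 0.28 with the mean of a gene's probe sets. The 4 genes that rose kept their direction under each scaling, whereas the small positive values of Aco1 and Ogdh turned negative with ribosomal centring. With that centring 1 enzyme, Idh3a, was called higher and 1, Idh1, lower, while Cs, Sucla2 and Mdh2 stayed positive and did not pass.

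To set the genes that rose beside those that did not, the reference sequence before their transcription start is shown for those with an entry in the RefSeq promoter table (GRCr8), as the 250 bases before the start, 5′ to 3′ on the gene's strand. Idh3a has no entry. Cs, Sucla2 and Mdh2 rose, Ogdh did not pass the test and Idh1 had a negative value. Capitals mark a match, on either strand, to any of 4 motifs: the hypoxia response element core ACGTG, the GC box GGGCGG, the CCAAT box CCAAT and the antioxidant response element core TGACNNNGC.
Cs, chr7:1348139-1348388, plus strand: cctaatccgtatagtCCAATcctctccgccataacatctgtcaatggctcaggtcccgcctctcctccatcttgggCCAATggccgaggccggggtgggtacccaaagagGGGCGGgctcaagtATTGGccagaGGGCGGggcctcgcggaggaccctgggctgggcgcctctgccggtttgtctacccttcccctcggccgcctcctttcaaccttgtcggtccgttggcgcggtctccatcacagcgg
Sucla2, chr15:55161644-55161893, plus strand: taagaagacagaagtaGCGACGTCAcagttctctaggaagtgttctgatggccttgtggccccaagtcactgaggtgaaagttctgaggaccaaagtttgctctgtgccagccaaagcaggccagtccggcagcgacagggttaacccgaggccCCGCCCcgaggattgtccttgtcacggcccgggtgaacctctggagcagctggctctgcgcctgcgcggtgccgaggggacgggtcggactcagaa
Mdh2, chr12:26543842-26544091, minus strand: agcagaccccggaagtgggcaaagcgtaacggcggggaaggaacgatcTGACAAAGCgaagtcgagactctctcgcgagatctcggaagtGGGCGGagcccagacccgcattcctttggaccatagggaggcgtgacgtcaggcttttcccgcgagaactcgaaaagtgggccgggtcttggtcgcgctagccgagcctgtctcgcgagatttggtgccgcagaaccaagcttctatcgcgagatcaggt
Ogdh, chr14:85363781-85364030, plus strand: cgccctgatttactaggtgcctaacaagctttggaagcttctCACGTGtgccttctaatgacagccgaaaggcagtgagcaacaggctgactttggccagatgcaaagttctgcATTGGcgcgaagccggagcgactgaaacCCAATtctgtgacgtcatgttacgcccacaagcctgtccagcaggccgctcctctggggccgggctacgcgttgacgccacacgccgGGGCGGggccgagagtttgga
Idh1, chr9:74049475-74049724, minus strand: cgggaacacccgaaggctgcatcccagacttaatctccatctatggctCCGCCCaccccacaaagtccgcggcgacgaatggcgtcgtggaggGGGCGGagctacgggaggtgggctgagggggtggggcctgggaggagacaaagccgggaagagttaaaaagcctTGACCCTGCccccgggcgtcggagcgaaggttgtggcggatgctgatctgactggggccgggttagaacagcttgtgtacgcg
The hypoxia response element core, searched only as ACGTG, had no match in these windows of Cs, Sucla2, Mdh2, Idh1 and Aco1. It had 2 matches in Ogdh, which are the opposite strands of a palindrome and overlap. Other letter forms of this core were not searched. The antioxidant core had 1 match each in Sucla2, Mdh2 and Idh1. A CCAAT box was found 3 times in Cs and 2 times in Ogdh, and every one of the 6 windows, Aco1 included, held at least 1 GC box. Among all 33469 promoters of this length 16.6% held ACGTG, 30.5% GGGCGG, 34.0% CCAAT and 10.1% TGACNNNGC. The windows of the 6 genes had a GC content of 58.8% to 66.8%, against a median of 51.2% over all promoters. The matches describe letters only, and neither a match nor its absence bears on what acts at these promoters.

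Citrate synthase (Cs, probe set 1375295_at), which condenses acetyl-CoA with oxaloacetate at the entry to the cycle, was 10.73 in each of the 3 control rats. After ischemia it was 11.19, 11.41 and 11.39 in rats 64, 65 and 66. All ischemia values thus lay above the controls, which spread by less than 0.01. Cs rose by 0.60 (SE 0.12, 95% interval 0.31 to 0.88, limma adjusted p = 0.00656, n = 3 rats a group). This was the smallest of the 4 rises and the one most often lost on leaving out a rat: leaving out control 63, 68 or 69 or ischemia 65 or 66 left the adjusted p between 0.0152 and 0.0390, and only without ischemia 64 did it pass. The gene was read by 3 further probe sets. The second (1384201_at) went from a mean of 10.37 to 10.99 and the third (1369967_at) from 9.01 to 9.89, with the groups apart in both and limma adjusted p of 0.0140 and 0.00207 over 14083 probe sets. The fourth (1396453_at) was dim, 6.66 and 6.51, under the 7.16 of the low-signal filter, and its groups overlapped.

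Aco1 (1386916_at) encodes cytosolic aconitase, which converts citrate to isocitrate and which without its iron-sulphur cluster is iron regulatory protein 1, a binder of iron-responsive mRNA elements. It was 9.30, 9.54 and 9.17 in control rats 63, 68 and 69 and 9.38, 9.46 and 9.63 in rats 64, 65 and 66. The ranges overlapped, and the difference of 0.15 (SE 0.15, interval -0.18 to 0.49, adjusted p = 0.428 by limma) was as large as its error. The interval leaves room for a rise of up to 0.49.

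Isocitrate dehydrogenase is present in forms that use NAD or NADP, and genes of both were measured. Idh3a (1367911_at) encodes the catalytic subunit of the NAD-dependent mitochondrial enzyme, a rate-controlling step of the cycle. It was 8.18, 8.31 and 8.17 in controls and 9.49, 9.95 and 9.79 after ischemia, so that the lowest ischemia value lay over 1 above the highest control. Idh3a rose by 1.52 (SE 0.15, interval 1.18 to 1.87, limma adjusted p = 0.000459), and it passed the test with any single rat left out. Its control values were near the 90th percentile of 36 genes of other tissues, 7.80, used as a background level.

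The regulatory subunits of the same enzyme were unlike Idh3a in size. Idh3b was 9.93 to 10.17 in control rats, 10.92 to 11.05 in ischemia rats, and rose by 0.93 (SE 0.13, limma adjusted p = 0.00142), though it did not pass with ribosomal centring, at 0.49. Idh3g was 11.97, 12.22 and 12.32 in controls and 12.45, 12.49 and 12.35 after ischemia, a difference of 0.26 (SE 0.14, limma adjusted p = 0.166) that did not pass and that was -0.18 with ribosomal centring. All 3 subunits lay above their controls in each ischemia rat, Idh3g by a small margin.

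Idh1 (1369954_at), the cytosolic NADP-dependent enzyme and a source of NADPH, was the only enzyme of the 7 with a negative value. It was 11.17, 11.75 and 11.79 in controls 63, 68 and 69 and 11.01, 10.66 and 11.07 in ischemia 64, 65 and 66. The groups did not overlap, but control 63 lay close to the ischemia rats. The difference of -0.66 (SE 0.20, interval -1.12 to -0.20, limma adjusted p = 0.0310) was not past the threshold. Without control 63 it was -0.86 (adjusted p = 0.00997) and passed, and it also passed with array weights, repeated quantile normalization, ribosomal centring or the mean of its probe sets. The other probe set of Idh1 (1394886_at) was dim and had the same direction, with 6.30, 6.04 and 6.62 in controls and 5.63, 5.20 and 5.17 after ischemia. Idh2, the mitochondrial NADP-dependent enzyme, lay at 11.65 to 11.80 in controls and at 11.91 to 12.08 with ischemia, a difference of 0.29 (SE 0.12, limma adjusted p = 0.0891) that turned to -0.14 with ribosomal centring.

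**Figure D2:**
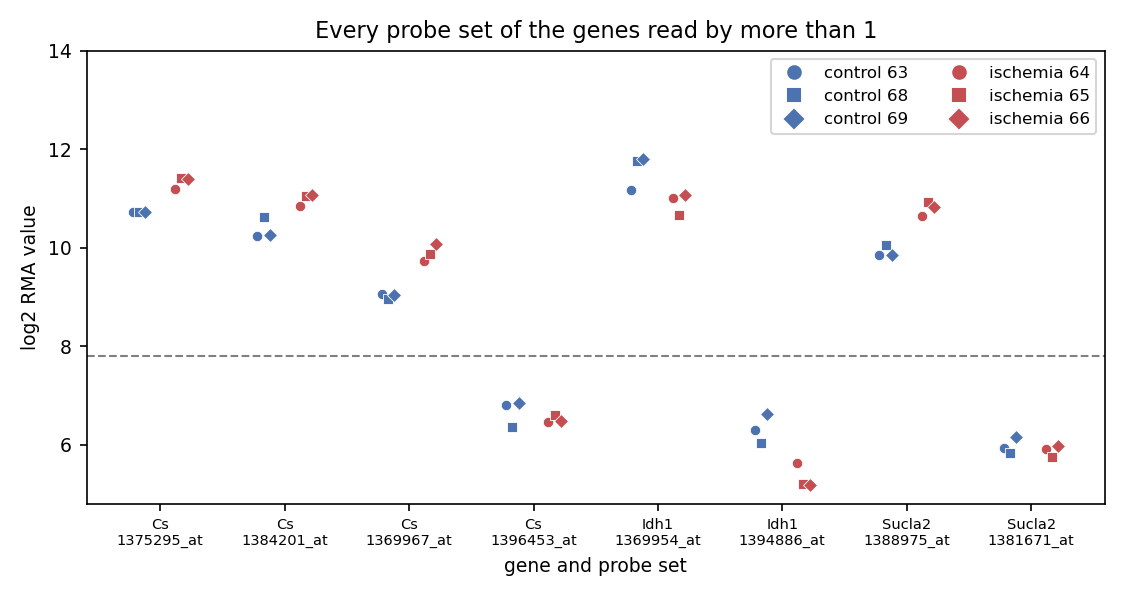
Log2 RMA values (vertical axis) of every probe set of Cs, Idh1 and Sucla2 (horizontal axis) in 3 control (blue) and 3 ischemia (red) rats, with the background level of 7.80 dashed. The 3 bright probe sets of Cs are higher in each ischemia rat, the bright and the dim one of Idh1 are lower, and the dim ones of Cs and Sucla2 show overlapping groups.

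The 2-oxoglutarate dehydrogenase complex joins 3 proteins. Its first component, encoded by Ogdh (1390020_at), was 11.19, 11.55 and 11.28 in controls and 11.41, 11.66 and 11.79 after ischemia. The ranges overlapped in rat 64, and the difference of 0.28 (SE 0.16, interval -0.079 to 0.64, limma adjusted p = 0.182) did not pass. The second component, Dlst, which transfers the succinyl group, was 9.88, 10.01 and 9.86 in controls and 11.27, 11.60 and 11.59 after ischemia. Dlst rose by 1.57 (SE 0.14, limma adjusted p = 0.000339), the largest rise among the 14 other cycle genes tested. Dld, the dihydrolipoamide dehydrogenase shared with the pyruvate complex, lay at 9.74 to 10.24 in controls, at 10.95 to 11.20 after ischemia, and rose by 1.06 (SE 0.16, limma adjusted p = 0.00193). Without ischemia 65 its difference was the same, 1.06, and just short of the threshold (adjusted p = 0.0101). The genes of this complex thus ran from no call in Ogdh to a 2.97-fold rise in Dlst.

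Succinyl-CoA synthetase makes succinate and a nucleoside triphosphate. Sucla2 (1388975_at) encodes the subunit that makes the enzyme ADP-specific. It was 9.84, 10.06 and 9.84 in controls and 10.64, 10.93 and 10.83 after ischemia, with no overlap. Sucla2 rose by 0.88 (SE 0.14, interval 0.57 to 1.20, limma adjusted p = 0.00216), but without ischemia 65 or 66 the adjusted p was 0.0138 and 0.0102. A second probe set (1381671_at) was dim and its groups overlapped, with means of 5.98 and 5.88, and averaged with it the gene did not pass, at 0.39. Suclg1, the subunit common to both forms of the enzyme, went from 10.45 to 10.66 in controls to 11.40 to 11.66 after ischemia and rose by 1.002 (SE 0.13, limma adjusted p = 0.0012), though with ribosomal centring it was 0.57 and did not pass. Suclg2, the GDP-specific counterpart of Sucla2, differed by 0.57 (SE 0.14, limma adjusted p = 0.0142), short of the threshold.

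Succinate dehydrogenase, the enzyme that itaconate inhibits, was covered by 6 of the other cycle genes. Sdhc, a membrane anchor subunit, lay between 10.35 and 10.66 in controls and between 11.24 and 11.53 after ischemia, and rose by 0.90 (SE 0.14, limma adjusted p = 0.00237). The assembly factor Sdhaf1 rose by 0.81 (SE 0.18, limma adjusted p = 0.00932). Sdhc did not pass without control 69, ischemia 65 or ischemia 66 (0.83 to 0.90), nor Sdhaf1 without any rat other than ischemia 64 (0.72 to 0.88), and with ribosomal centring neither passed (0.46 and 0.38). The flavoprotein subunit Sdha, the iron-sulphur subunit Sdhb, the anchor Sdhd and the assembly factor Sdhaf2 differed by 0.24, 0.31, 0.19 and 0.33 and did not pass, and these 4 values turned negative with ribosomal centring. The assembly factor Sdhaf4, listed with the genes around itaconate, differed by 0.87 (limma adjusted p = 0.0107) and did not pass.

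Malate dehydrogenase closes the cycle. Mdh2 (1369927_at), the mitochondrial enzyme, was 11.10, 11.25 and 11.28 in controls and 12.06, 12.21 and 12.25 after ischemia, the groups lying far apart beside their spread. Mdh2 rose by 0.97 (SE 0.13, interval 0.68 to 1.26, limma adjusted p = 0.00115) and passed with any single rat left out, though not with ribosomal centring (0.53). Mdh1, the cytosolic enzyme of the malate-aspartate shuttle, was 12.57, 13.20 and 12.95 in controls and 13.12 in each ischemia rat, and its difference of 0.21 (SE 0.17, limma adjusted p = 0.347) did not pass and was -0.22 with ribosomal centring. Of the 14 other cycle genes tested, 6 rose (Idh3b, Dlst, Dld, Suclg1, Sdhc and Sdhaf1), none fell (none at an unadjusted limma p under 0.05 either) and 8 did not pass, with a median of 0.45. Over all genes 16.8% were called higher and 5.99% lower. Without ischemia 65 the count of rises was 3, and with ribosomal centring it was 1, Dlst. The groups did not overlap for 12 of these 14, beside 55.6% of all genes.

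**Figure D3:**
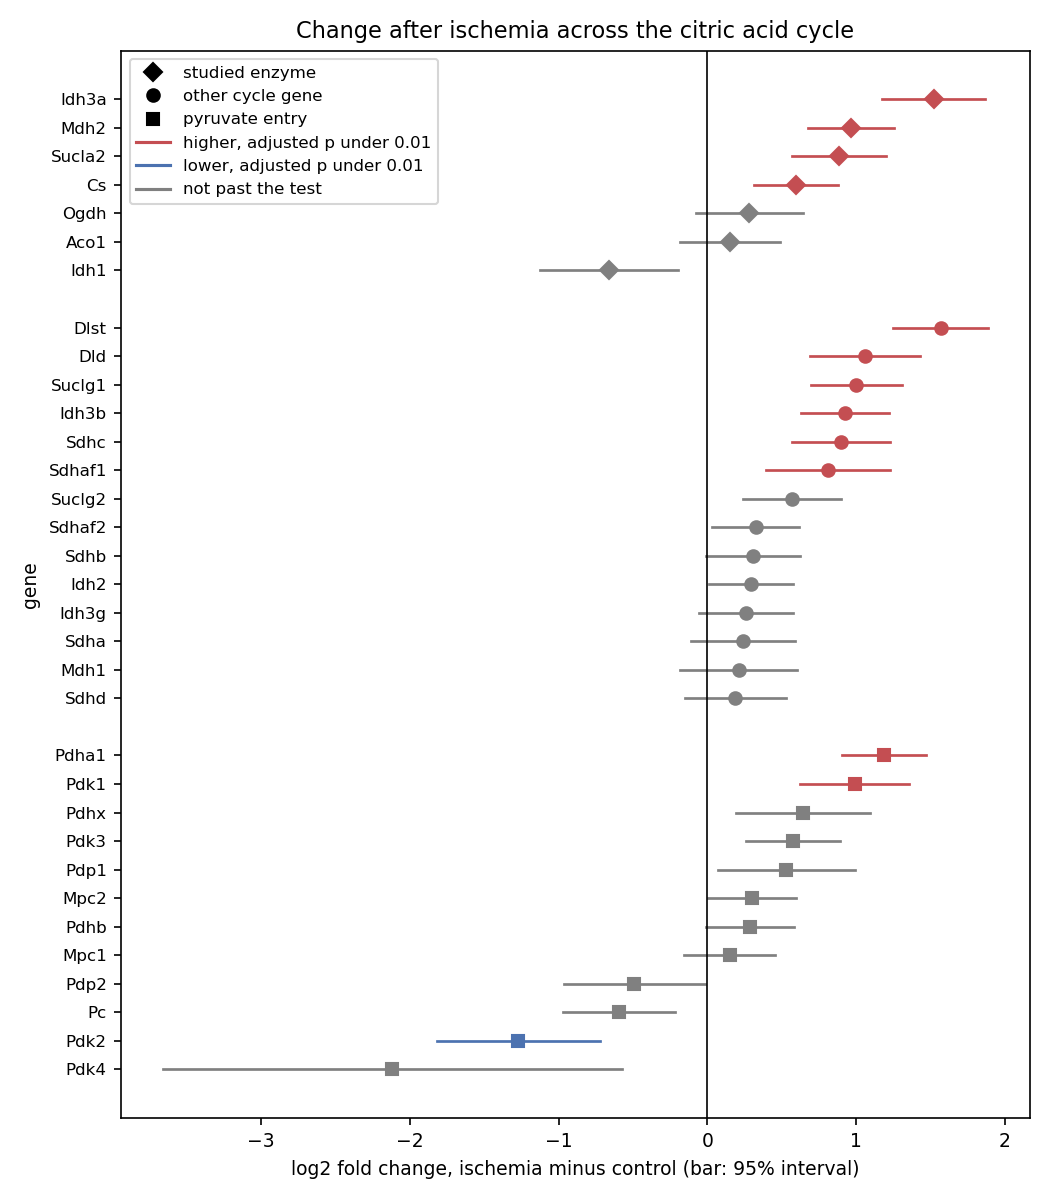
Log2 fold change of ischemia over control with 95% intervals (horizontal axis) for the 7 enzymes, 14 other cycle genes and 12 genes of pyruvate entry (vertical axis), in red where higher and blue where lower at an adjusted p under 0.01 and grey where neither. Idh3a at 1.52 and Dlst at 1.57 lie farthest to the right, and Idh1 is the only one of the 7 enzymes and 14 other cycle genes below 0.

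Differences between genes can be read inside each array, where a common scaling of the array cancels. For 6 pairs, chosen after their values were seen and so given without a test, the log2 difference of the genes was taken in each rat and set against its control mean. The difference of Idh3a and Idh1 was higher by 1.84, 2.64 and 2.07 in rats 64, 65 and 66, while controls lay between -0.27 and 0.36. For Dlst and Ogdh, components of the same complex, it was higher by 1.28, 1.36 and 1.22, with controls between -0.12 and 0.11. These shifts were several times the spread among controls.

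Idh3a shifted against Idh3g by 0.99, 1.42 and 1.39, with controls between -0.20 and 0.16. Mdh2 shifted against Mdh1 by 0.64, 0.79 and 0.83, with controls between -0.26 and 0.23. Both comparisons thus placed all 3 ischemia rats above all 3 controls. The mean shift was 0.66 for Sdhc against Sdha and 0.90 for Pdha1 against Pdhb, subunits of pyruvate dehydrogenase. A ratio within an array shows that change was unequal, not which gene stayed as it was.

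**Figure D4:**
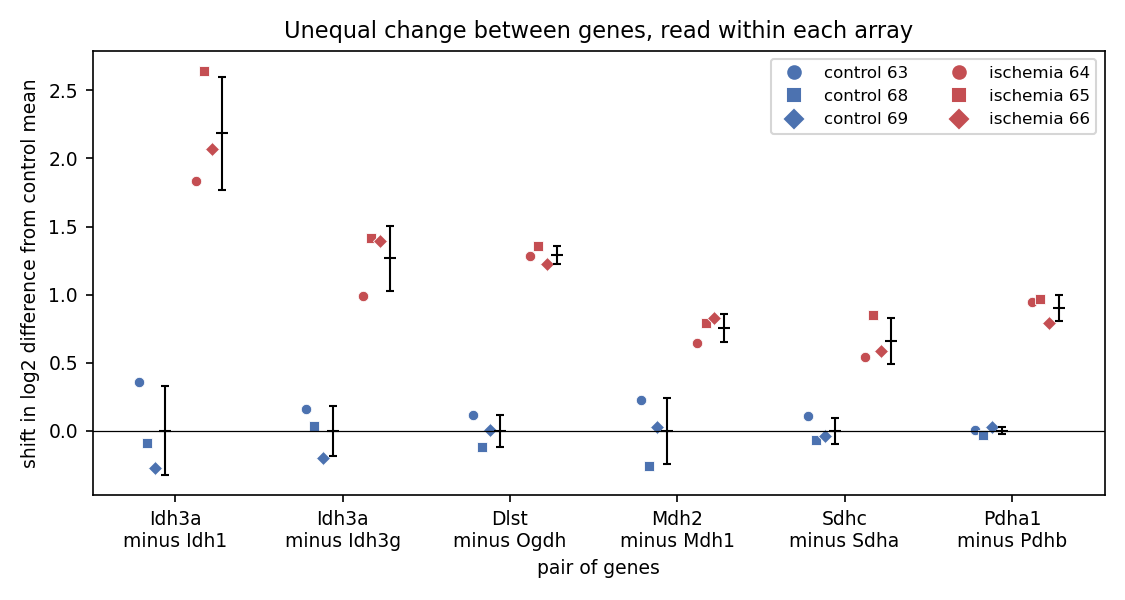
Log2 difference of 2 genes within an array, less its mean in controls (vertical axis), for 6 pairs (horizontal axis), a symbol per rat with mean and SD in black. Ischemia rats (red) lie above controls (blue, around 0) in each pair, from a mean of 0.66 for Sdhc against Sdha to 2.18 for Idh3a against Idh1.

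The 7 enzymes were also summarised by rat. The median deviation from the control mean was -0.072, 0.14 and -0.051 in controls 63, 68 and 69 and 0.46, 0.68 and 0.66 in ischemia 64, 65 and 66. Rat 64 was thus the ischemia rat nearest to the controls, also over the 4 enzymes that rose, where its median was 0.79 against 1.01 and 0.98.

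Pyruvate reaches the cycle through the pyruvate dehydrogenase complex, which kinases switch off. Of 12 genes tested here 2 rose, 1 fell and 9 did not pass, with a median of 0.29. The share that rose is near the 16.8% of all genes. Pdha1, the catalytic subunit, was 10.57, 10.54 and 10.70 in controls and 11.69, 11.86 and 11.82 after ischemia and rose by 1.19 (SE 0.12, limma adjusted p = 0.000526). Its partner Pdhb differed by 0.29 and the component Pdhx by 0.65, neither past the test, although Pdhx passed without control 68, at 0.84. The kinases went different ways. Pdk1, a hypoxia-responsive kinase, lay between 9.05 and 9.40 in controls and between 10.07 and 10.45 after ischemia, and rose by 0.99 (SE 0.16, limma adjusted p = 0.00241). With ribosomal centring neither Pdha1 (0.75) nor Pdk1 (0.55) passed. Pdk2 was 8.49, 9.28 and 8.80 in controls and 7.96, 7.31 and 7.49 after ischemia and fell by 1.27 (SE 0.24, limma adjusted p = 0.00455), but it did not pass without control 68 or 69 or ischemia 65 or 66, at -1.30 to -1.06. Its ischemia mean lay under the background level of 7.80, so the fall is bounded as at least 2.07-fold, from the control mean to that level. Pdk4 was 7.58, 8.75 and 10.40 in controls against 7.38, 5.87 and 7.11, and its difference of -2.12 did not pass (limma adjusted p = 0.0359). Pdk3 differed by 0.57 and Pc, pyruvate carboxylase, by -0.59, and neither passed. Pdk4 (-2.55) and Pc (-1.03) passed with ribosomal centring, and all 3 with array weights, Pdk4 at -3.25, Pc at -0.73 and Pdk3 at 0.71. Pdk3 also passed with the mean of its probe sets (0.67) and with the low-signal filter at the 60th percentile.

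With Acod1 not measured, the genes around itaconate and succinate gave 16 tested of 21 listed, of which 3 rose, none fell (2 were lower at an unadjusted limma p under 0.05) and 13 did not pass, with a median of -0.056, below that of all genes. The share that rose is near the 16.8% of all genes. Itaconate is known to activate NRF2, and of 4 classical NRF2 targets in the list Nqo1 and Txnrd1 rose and Hmox1 and Gclm did not pass. Nqo1 was 7.37, 7.92 and 7.35 in controls and 9.20, 9.94 and 9.85 after ischemia and rose by 2.12 (SE 0.24, limma adjusted p = 0.000685). Its control mean lay under the background level of 7.80, so the rise is bounded as at least 3.63-fold, from that level to the ischemia mean. Txnrd1, a thioredoxin reductase, lay at 8.87 to 9.27 in controls, at 10.54 to 11.25 after ischemia, and rose by 1.81 (SE 0.21, limma adjusted p = 0.00071). Il6, a cytokine, was listed at 4.78 to 6.58 in controls, under the filter level of 7.16, and at 9.93 to 10.76 after ischemia. It was tested only because of its ischemia values, and the rise is bounded as at least 5.79-fold, from the background level to the ischemia mean. Hmox1, heme oxygenase, differed by -0.12 (limma adjusted p = 0.826) with overlapping groups, and by 0.36 without control 69 and 0.035 without ischemia 65. Gclm, a subunit of the glutathione-making ligase, differed by 0.51 (limma adjusted p = 0.0189). The NRF2 gene itself, Nfe2l2, and its repressor Keap1 differed by -0.25 and -0.095 with overlapping groups. Abcg2, a transporter reported to export itaconate, was 9.16, 7.89 and 7.31 in controls and 9.67, 9.51 and 10.32 after ischemia, a difference of 1.72 that did not pass (limma adjusted p = 0.0156) but passed without control 63, at 2.23.

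Other genes exchange citrate, malate and glutamate with the cycle. Of 19 tested, 6 rose, 1 fell and 12 did not pass, with a median of 0.49, beside 16.8% higher and 5.99% lower over all genes. The largest change was in Slc1a5, a glutamine transporter, which was 8.95, 9.30 and 9.42 in controls and 11.95, 12.54 and 12.49 after ischemia and rose by 3.10 (SE 0.20, limma adjusted p = 0.000104). Of the malic enzymes, which turn malate into pyruvate, the mitochondrial Me2 rose by 1.31. The cytosolic Me1 ranged from 5.81 to 7.12 in controls, under the filter level, and from 8.17 to 10.04 after ischemia. Me1 was tested only because of its ischemia values, and the rise is bounded as at least 3.02-fold, from the background level to the ischemia mean. Me3, also mitochondrial and named after its values were seen, differed by -0.50 (limma adjusted p = 0.0400) and did not pass, except with ribosomal centring, at -0.93. Got2, the mitochondrial aspartate aminotransferase, rose by 0.88, Pck2, mitochondrial phosphoenolpyruvate carboxykinase, by 0.78, and Acaca, which makes malonyl-CoA from acetyl-CoA, by 1.08. Acss1, a mitochondrial acetyl-CoA synthetase, fell by 1.03 (SE 0.18, limma adjusted p = 0.00329). Me1 (2.59 to 2.94) and Acss1 (-1.03 to -0.88) did not pass without control 68 or 69 or ischemia 65 or 66, nor Got2 (0.84 to 0.88) without control 69 or ischemia 65 or 66, nor Pck2 (0.76) and Acaca (1.06) without ischemia 65. With ribosomal centring Me2 (0.88), Got2 (0.45), Acaca (0.65) and Pck2 (0.35) did not pass, nor did Got2 (0.40) and Pck2 (0.50) with the mean of probe sets.

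The 7 enzymes were finally followed over all settings tried. Idh3a was past the test in each setting that kept the same threshold, with values between 1.09 and 1.67. Idh1 was negative in each, and Cs, Sucla2 and Mdh2 positive in each. With the added requirement of a log2 fold change beyond 2, none of the 7 enzymes and none of the other cycle genes was called.

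**Figure D5:**
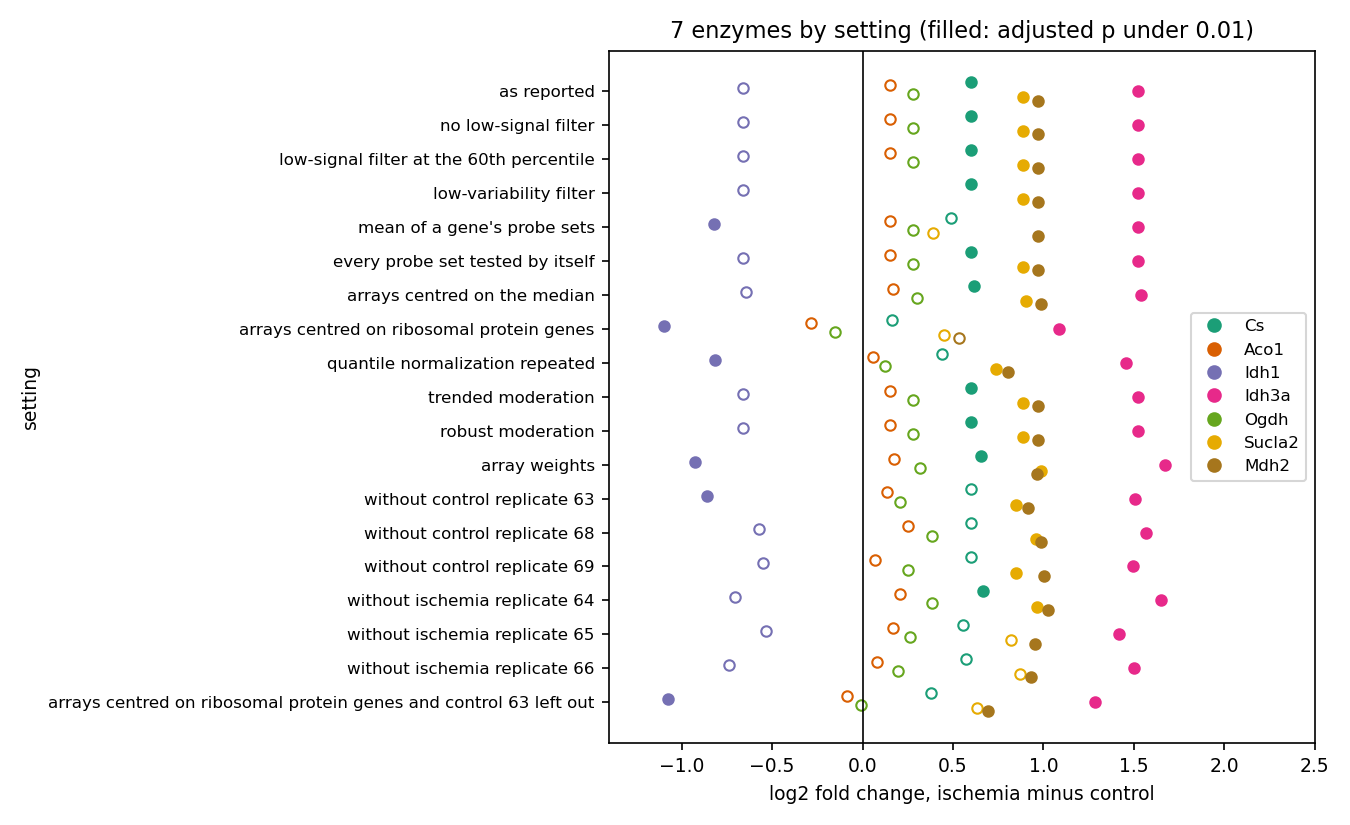
Log2 fold change (horizontal axis) of each of the 7 enzymes (colours) as reported and under each alternative setting (vertical axis), filled where the adjusted p was under 0.01. Idh3a is filled throughout, Cs, Sucla2 and Mdh2 stay right of 0 but empty in some settings, Idh1 stays left of 0, and Aco1 and Ogdh cross 0 with ribosomal centring.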

How the data were processed

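CD11b+CD163+ cells of 3 control rats and 3 rats after ischemia were profiled, 1 array per rat. Values were deposited on the log2 scale, as the authors obtained them by RMA, which corrects background, equalises the arrays by quantile normalization and summarises the probes of a set; the submitters' processing notes name R 3.3.1 and limma 3.18. The deposited arrays were not fully equal in distribution, control 63 having a lower highest value (13.85), so whether all 6 were normalized together is not settled by the sources used here. The values of 31099 probe sets were used as deposited, with gene symbols from the platform annotation (20826 probe sets with 1 symbol, 436 with several, 9780 with none, 57 controls).

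For each gene the probe set with the highest mean was taken, and the gene was tested if 3 or more arrays lay above 7.16 (the 40th percentile of all values). Groups were compared with lmFit and eBayes in limma 3.58.1 under R 4.3.3 (two-sided, Benjamini-Hochberg over 9928 genes, no covariate), tested on simulated data first. An exact permutation test of 3 rats against 3 cannot go below p = 0.1 and was not used. The number of arrays limits the precision. Named genes were every enzyme studied and, from lists of the cycle, pyruvate entry and itaconate, any gene; from other lists, those past the test and up to 2 of highest mean. The members and lists were chosen with earlier results of these data known. Alternatives were other filters, probe set summaries, scalings, moderation, thresholds and leaving out each rat. Promoter sequences came from RefSeq (GRCr8).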

Additional observations from a re-analysis of the deposited data

How the results depend on the processing

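Idh3a and Mdh2 kept their call with any single rat left out, and directions of Cs, Idh1, Idh3a, Sucla2 and Mdh2 held in every setting. Calls of Cs and Sucla2, and that of Idh1, depended on rats and scaling, and the cause was not tested. No paired analysis was possible because the rat numbers differ between the groups.

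With arrays centred on ribosomal protein genes, 388 genes were higher and 1398 lower, with 1 of the 7 enzymes higher, 1 lower and 1 other cycle gene higher. The enzymes' median was 0.16. Cs (0.16), Sucla2 (0.45) and Mdh2 (0.53) no longer passed, Idh1 (-1.10) passed, and Aco1 (-0.28), Ogdh (-0.15), Idh2 (-0.14), Idh3g (-0.18), Sdha (-0.20), Sdhb (-0.13), Sdhd (-0.25), Sdhaf2 (-0.11), Mdh1 (-0.22) and Pdhb (-0.15) reversed. With control 63 also left out, an alternative chosen after seeing the data, 539 genes were higher, 2 enzymes were higher and 1 lower, 2 other cycle genes were higher and the median was 0.38. Cs (0.38) and Sucla2 (0.63) did not pass, Idh1 (-1.08) did, and Aco1 (-0.086), Ogdh (-0.010), Idh3g (-0.060), Sdha (-0.098), Sdhd (-0.16) and Mdh1 (-0.17) reversed.

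With the mean of a gene's probe sets 2 enzymes were higher and 1 lower, with a median of 0.39. Cs (0.49) and Sucla2 (0.39) did not pass, Idh1 (-0.82) did, Mdh1 was -0.010 and the shift of Mdh2 against Mdh1 was 0.98. Repeated quantile normalization gave 929 lower genes, 1 enzyme lower, Idh1 (-0.81), a median of 0.44 and Cs (0.44) not past. Array weights gave 1309 lower genes and 1 enzyme lower, Idh1 (-0.92). The low-variability filter, which keeps fewer genes, gave a median of 0.88. At an adjusted p under 0.05, 2722 genes were higher and 1377 lower, with Idh1 (-0.66) as the 1 enzyme lower. With a log2 fold change beyond 2 also required, 162 genes were higher and 58 lower, and 0 enzymes and 0 other cycle genes passed, Cs (0.60), Idh3a (1.52), Sucla2 (0.88) and Mdh2 (0.97) included.

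Leaving out each rat in turn gave 681 to 1564 genes higher and 166 to 816 lower (fewest of each without ischemia 65, most without ischemia 64), 2 to 4 enzymes higher and 0 to 1 lower, and 3 to 6 other cycle genes higher. The enzymes' median was 0.56 to 0.67. Cs ranged from 0.56 to 0.67, Idh1 from -0.86 to -0.53, Idh3a from 1.42 to 1.65, Sucla2 from 0.82 to 0.97, Mdh2 from 0.91 to 1.02, Aco1 from 0.071 to 0.25 and Ogdh from 0.20 to 0.39. Cs passed only without ischemia 64, Sucla2 failed without ischemia 65 or 66, and Idh1 passed only without control 63. Hmox1 ranged from -0.49 to 0.36 and reversed without control 69 (0.36) and without ischemia 65 (0.035).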

Other observations

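Aco1 is also iron regulatory protein 1, so genes of iron regulation were read beside it. Of 5 genes tested from a list of iron regulation and 2-hydroxyglutarate, 1 rose, 1 fell and 3 did not pass, with a median of 0.29. Over all genes 16.8% were called higher and 5.99% lower. Ireb2, which encodes iron regulatory protein 2, was 8.22, 8.05 and 8.26 in controls and 8.82, 9.18 and 8.75 after ischemia and rose by 0.75 (SE 0.15, limma adjusted p = 0.0066). Slc40a1, the iron exporter ferroportin, was 12.01, 13.09 and 12.66 in controls and 10.51, 10.17 and 9.999 after ischemia and fell by 2.36 (SE 0.27, limma adjusted p = 0.000739). The groups were apart for both genes, whereas Aco1 itself had overlapping groups. Of those that did not pass, Tfrc differed by -0.0061 (limma adjusted p = 0.984) with overlapping groups. Fbxl5 differed by 0.41 (limma adjusted p = 0.0270). Tfrc and Fbxl5 were named after their values were seen. Ireb2 did not pass with ribosomal centring (0.31), after repeated quantile normalization, or without control 63, 68 or 69 or ischemia 65 or 66.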
